A study of Mus musculus with 15 samples.

Results

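Eph receptors form a large family of receptor tyrosine kinases, and ephrins are their membrane-bound ligands. The 10 genes described here were chosen by name, as a list of 6 receptors (Epha1, Epha2, Epha4, Ephb2, Ephb3 and Ephb4) and 4 ligands (Efna1, Efna4, Efnb1 and Efnb2). Each mapped to its row in a raw count table of 52636 mouse genes. The rule used no expression value, but the genes were chosen with earlier results of these data known. RNA was sequenced in 15 samples of CRAFR26 cells that had been differentiated from mouse embryonic stem cells into epiblast-like cells (EpiLCs), a culture model of the early postimplantation epiblast. CRAFR26 carries a c-RAF kinase construct that 4-hydroxytamoxifen (4OHT) switches on, and c-RAF acts upstream of the MEK and ERK kinases. All samples had been differentiated in N2B27 medium with 12 ng/ml bFGF, 20 ng/ml Activin A and 1 µM XAV939, a tankyrase inhibitor. All of them, the 0h samples included, had 250 nM of PD17 (PD173074), an FGF receptor inhibitor, for 2 h before the experiment. The 0h group (n = 3) had PD17 alone, the 2h group (n = 4) had 250 nM 4OHT for 2 h, and the 4h group (n = 4) had 4OHT for 4 h. The rev group (n = 4) is labelled with 4 h of 4OHT and 2 h of a MEK inhibitor whose name and dose the labels do not give. They also do not say whether the inhibitor was added during or after the 4 h of 4OHT. A change described below as from 4h to rev therefore compares separate groups and is not a known course in time. The cells came from 2 clones of the line, clone 4 (7 samples) and clone 8 (8 samples). The 0h group held 1 clone 4 library and 2 clone 8 libraries, and every other group held 2 of each. Nothing in the labels says that samples of a group came from separate cultures, so p-values measure only the spread between these samples, which may be technical.

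Ephrin-A ligands are held in the membrane by a lipid anchor, whereas ephrin-B ligands span the membrane and can signal into the cell that carries them. EphA receptors mainly bind ephrin-A ligands and EphB receptors mainly bind ephrin-B ligands, with EphA4 binding both classes. Contact between a receptor on one cell and a ligand on its neighbour steers adhesion, repulsion and boundary formation in embryos.

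Upstream sequences are shown for 3 genes that passed the test after 4OHT, Epha2 and Efnb1 because they rose and Efna4 because it fell. The sequences are those of RefSeq (GRCm38.p6), 250 bases read 5′ to 3′ on the strand of the gene and ending at the base before its RefSeq start. The Epha2 window is chr4:141300971-141301220 on the plus strand, the Efnb1 window chrX:99135811-99136060 on the plus strand and the Efna4 window chr3:89338029-89338278 on the minus strand. Capitals mark matches to the searched motifs.
Epha2: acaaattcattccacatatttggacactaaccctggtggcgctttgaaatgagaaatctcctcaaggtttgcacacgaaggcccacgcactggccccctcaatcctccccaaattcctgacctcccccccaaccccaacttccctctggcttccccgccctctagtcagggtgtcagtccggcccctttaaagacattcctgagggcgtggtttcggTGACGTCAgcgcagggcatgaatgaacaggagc
Efnb1: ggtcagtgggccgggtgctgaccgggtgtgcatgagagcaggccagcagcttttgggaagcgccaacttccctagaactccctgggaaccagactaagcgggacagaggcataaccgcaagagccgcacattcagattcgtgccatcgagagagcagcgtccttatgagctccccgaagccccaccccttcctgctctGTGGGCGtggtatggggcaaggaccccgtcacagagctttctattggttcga
Efna4: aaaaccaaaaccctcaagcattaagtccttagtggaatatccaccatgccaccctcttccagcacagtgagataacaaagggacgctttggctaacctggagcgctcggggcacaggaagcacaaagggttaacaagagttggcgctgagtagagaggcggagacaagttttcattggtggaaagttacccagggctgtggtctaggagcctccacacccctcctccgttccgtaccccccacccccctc
Both strands of each 250-base window were searched for an ETS motif (CCGGAAG), an AP-1 motif (TGANTCA), an EGR motif (GTGGGCG), a cAMP response element or CRE motif (TGACGTC) and the CArG box bound by SRF. The Epha2 window matched CRE once on each strand, in overlapping matches that began 33 and 32 bases before the start. CRE was found in 2.78% of all 32851 upstream windows of that length. The Efnb1 window matched EGR 52 bases before the start, and the Ephb3 window matched EGR 115 bases before the start. EGR was found in 7.02% of all windows, ETS in 6.91%, AP-1 in 6.75% and the CArG box in 1.47%. All 10 genes had a RefSeq window (Efna1 had 2), and none of the windows of the genes other than Epha2, Efnb1 and Ephb3 held any of the 5 motifs. A match describes letters in the window, not a bound site.

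The 4h libraries stood apart in depth, with total counts of 1552022 to 6658950 against 8667880 to 13004556 in the other groups. Mitochondrial genes took 7.21% to 12.4% of their counts, against 2.67% to 6.98% elsewhere. EpiLC and general pluripotency markers (Pou5f1, Sox2, Otx2, Fgf5, Dnmt3b and Pou3f1, 6 of 6 with counts in every library) summed to 681 to 761 CPM at 4h and to 949 to 1399 CPM elsewhere. CPM are normalised read counts, here on library totals scaled with the trimmed mean of M-values (TMM). Of these markers, Dnmt3b, the most abundant, was lower at 4h than at 0h (416 and 935 CPM on average), as were Pou5f1, Fgf5 and Pou3f1, whereas Sox2 (111 and 22.3 CPM) and Otx2 (25.1 and 12.3 CPM) were higher. Naive pluripotency markers (Zfp42, Esrrb, Klf4 and Tfcp2l1, 4 of 4 with counts in every library) summed to 32.3 to 127 CPM at 4h and 15.1 to 24.0 CPM elsewhere. Esrrb was the largest part at 4h (42.9 CPM on average, 3.29 CPM at 0h). Zfp42 (16.8 and 5.91 CPM) and Tfcp2l1 (16.2 and 6.23 CPM) were also higher at 4h than at 0h. Klf4 did not pass at 4h vs 0h (0.69, edgeR adjusted p = 0.145). Neural markers (Sox1 and Pax6, 2 of 2) summed to 37.9 to 50.5 CPM at 4h and 2.38 to 10.1 CPM elsewhere. Mesendoderm markers (T, Eomes and Mixl1) summed to 5.69 to 10.9 CPM at 4h and 2.74 to 8.67 CPM elsewhere. Of these, Eomes rose at 4h vs 0h (1.56, edgeR adjusted p = 5.62e-05) and averaged 2.00 CPM at 0h and 5.81 CPM at rev. Mixl1 did not pass (0.84, edgeR adjusted p = 0.151) and T was not tested. Endoderm markers (Gata6, Gata4 and Sox17) summed to 1.51 to 3.46 CPM at 4h and 1.74 to 3.61 CPM elsewhere. The fibroblast list (Vim, Thy1 and Col1a1, 2 of 3 with counts in every 4h library) summed to 58.1 to 272 CPM at 4h and 26.3 to 58.1 CPM elsewhere, nearly all of it Vim. At 4h vs 0h Vim was higher (2.37, edgeR adjusted p = 0.000687), Thy1 was lower (-1.77, 0.00103) and Col1a1 did not pass (0.20, 0.709). No marker was at 0 in all libraries of a group. The part of depth, mitochondrial share and these markers in the 4h results below was not tested, and in bulk samples fewer cells of a type and less RNA per cell cannot be told apart.

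Of the 10 genes, 9 passed the filter on low counts and were tested with edgeR's quasi-likelihood test, adjusted by Benjamini-Hochberg over 13451 genes and called when the adjusted p was under 0.05. At 2h vs 0h, 1 of the 9 rose and 2 fell, against a background over all tested genes of 6.45% (higher 3.98%, lower 2.46%). At 4h vs 0h, 3 rose and 1 fell, against a background of 39.4% (higher 20.5%, lower 18.9%), so this count is near the background. At 4h vs 2h, 2 rose and 1 fell against a background of 38.9% (19.7% higher and 19.2% lower). At rev vs 4h, 2 rose and 4 fell against a background of 30.8% (15.1% higher and 15.6% lower). At rev vs 0h, 2 rose and 1 fell against a background of 11.2% (6.49% higher and 4.66% lower). Counted instead by libraries that did not overlap in CPM, at 2h vs 0h Epha2 was higher (10.1% of all tested genes were) and Ephb4, Efna4 and Efnb2 were lower (8.99%). At 4h vs 0h Epha2 and Efnb1 were higher without overlap (18.2%), at 4h vs 2h Efnb2 was higher (12.8%) and at rev vs 4h Epha2 was lower (10.8%). At rev vs 0h Epha1 and Epha2 were higher (14.7%) and Ephb4 and Efna4 were lower (11.3%). The median log2 fold change of the 9 genes was -0.10 at 2h vs 0h, -0.30 at 4h vs 0h, 0.28 at 4h vs 2h, -0.32 at rev vs 4h and 0.14 at rev vs 0h. The same medians over all tested genes lay between -0.01 and 0.03. Comparisons with 0h share its 3 libraries, and those with 4h share its 4. The gene that failed the filter was Efna1, a lipid-anchored ligand, with 7 to 13 counts per library at 0h, 7 to 11 at 2h, 0 to 3 at 4h and 3 to 14 at rev. At 4h it lay at or under the floor of 3 counts, which is 1.10 CPM on average there and above its mean in every other group, so no fold change is given for Efna1.

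Epha2 (ENSMUSG00000006445, chr4:141301240-141329384, plus strand, GRCm38) codes for a receptor of ephrin-A ligands, and among the 9 tested genes it had the largest rise at 2h and at 4h vs 0h. At 0h it measured 8.96 CPM in clone 4 and 16.0 and 17.2 CPM in clone 8. At 2h it measured 210 and 187 CPM in clone 4 and 128 and 146 CPM in clone 8. Every 2h library was far above every 0h library. At 4h the values were 92.9 and 92.3 CPM in clone 4 and 130 and 125 CPM in clone 8. At rev they were 51.7 and 43.3 CPM in clone 4 and 38.6 and 39.7 CPM in clone 8. All 4h libraries were above 0h, the rev libraries lay between 0h and 4h without overlapping either, and the 4h and 2h ranges overlapped. Group means were 14.1 ± 4.46 CPM (SD, n = 3) at 0h, 168 ± 37.6 (n = 4) at 2h, 110 ± 20.4 (n = 4) at 4h and 43.3 ± 5.92 (n = 4) at rev.

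The rise of Epha2 was 3.60 on the log2 scale at 2h vs 0h (SE 0.270, edgeR adjusted p = 4.66e-06) and 2.98 at 4h vs 0h (SE 0.260, edgeR adjusted p = 1.98e-06). From 4h to rev it fell by 1.34 (SE 0.218, edgeR adjusted p = 0.000484), and at rev it was above 0h by 1.64 (SE 0.248, edgeR adjusted p = 0.00103). These 4 calls held in each fit that left out a library. Without the shallow 4h libraries in the fit, the change was 3.53 at 2h vs 0h and 1.58 at rev vs 0h. Epha2 was also lower at 4h than at 2h, with a log2 fold change of -0.61 (SE 0.215, edgeR adjusted p = 0.0382). That call was lost without any one of the 4 clone 4 libraries at 2h and 4h, with values of -0.58 to -0.50 and edgeR adjusted p between 0.0740 and 0.108. It was also lost with the replicate number as a block (edgeR adjusted p = 0.0809).

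**Figure D1:**
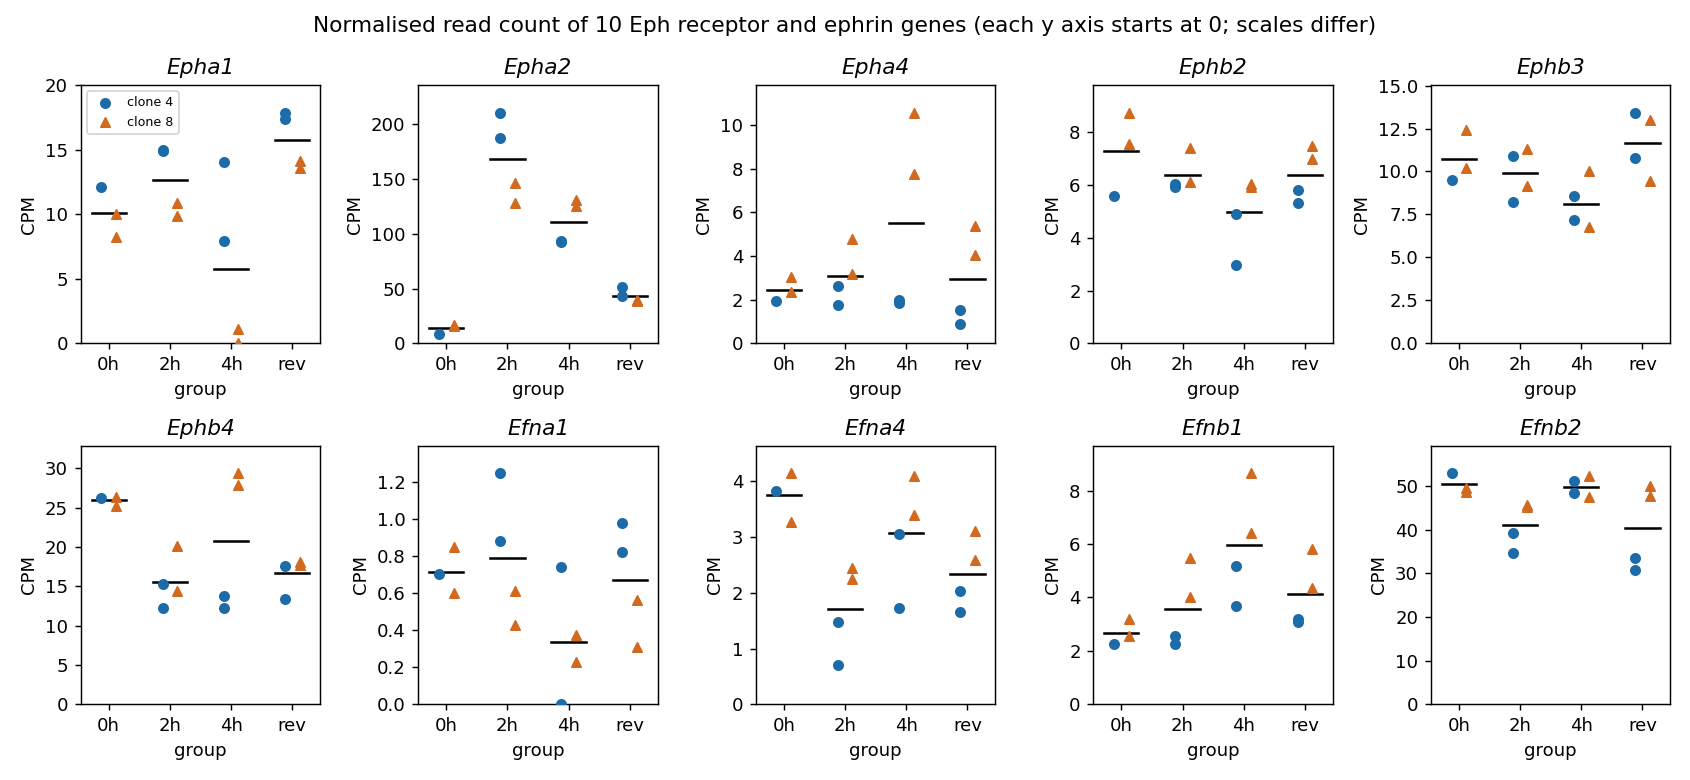
Normalised read count (CPM, vertical axes, each starting at 0 with its own scale) of the 10 genes in the 4 groups (horizontal axes), with blue circles for clone 4 libraries, orange triangles for clone 8 libraries and black bars for group means. Epha2 goes from 8.96 to 17.2 CPM at 0h up to 128 to 210 CPM at 2h, while Efnb2 lies between 30.8 and 53.0 CPM in all libraries.

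Ephb4 (ENSMUSG00000029710, chr5:137350109-137378669, plus strand), a receptor of ephrin-B2 known for its part in separating veins from arteries, fell at 2h. It measured 26.2, 25.2 and 26.4 CPM in the 3 libraries at 0h and 15.3, 12.3, 14.4 and 20.1 CPM at 2h, with no overlap. The log2 fold change was -0.69 (SE 0.183, edgeR adjusted p = 0.0244). Within clones the change was -0.92 in clone 4, against its single library at 0h. In clone 8 it was -0.58 and did not pass (edgeR adjusted p = 0.111). At rev it measured 17.6, 13.4, 18.0 and 17.7 CPM, again below every 0h library, with a log2 fold change of -0.58 from 0h (SE 0.184, edgeR adjusted p = 0.0453). The 2h call was lost without the clone 4 library at 0h (-0.47, edgeR adjusted p = 0.311), replicate 2 of clone 4 at 2h (-0.66, 0.0801) or replicate 1 of clone 8 at 2h (-0.59, 0.108). The rev call was lost without any of the libraries compared except replicate 1 of clone 8 at 0h and replicate 1 of clone 4 at rev, and its value was -0.36 without the clone 4 library at 0h. Ephb4 shares 33 exonic bases with Zan on the opposite strand, and whether the counting used strand is not given in the sources used here.

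Epha4 (ENSMUSG00000026235, chr1:77367185-77515088, minus strand), whose receptor binds ephrins of both classes, rose at 4h in the fit over both clones. At 0h it measured 1.94 CPM in clone 4 and 2.34 and 3.03 CPM in clone 8. At 4h it measured 1.83 and 1.97 CPM in clone 4, from 3 and 8 reads, and 7.74 and 10.6 CPM in clone 8. The clone 8 libraries at 4h lay above all 0h libraries, and the clone 4 libraries at 4h did not. Within clones the change at 4h vs 0h was -0.01 in clone 4, against its single 0h library, and 1.76 in clone 8 (edgeR adjusted p = 0.000737). Over both clones the log2 fold change at 4h vs 0h was 1.15 (SE 0.341, edgeR adjusted p = 0.0105). From 4h to rev Epha4 fell by 0.92 (SE 0.320, edgeR adjusted p = 0.0321), to 0.911 and 1.55 CPM in clone 4 and 5.36 and 4.05 CPM in clone 8. The rise was lost without replicate 1 of clone 8 at 0h (0.88, edgeR adjusted p = 0.0780) or replicate 2 of clone 8 at 4h (0.87, 0.0694), and with scaling to total counts it was 0.38 (0.421). The fall was lost without any of the libraries compared except those of clone 4 at 4h and replicate 1 of clone 8 at rev, with edgeR adjusted p up to 0.170.

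Epha1 (ENSMUSG00000029859, chr6:42358487-42373268, minus strand), a receptor that binds ephrin-A1, spread widely at 4h. It measured 12.1, 10.03 and 8.24 CPM at 0h, and 14.9 and 14.9 CPM in clone 4 and 9.85 and 10.9 CPM in clone 8 at 2h. At 4h it measured 14.0 and 7.90 CPM in clone 4 (23 and 32 reads) and 1.14 and 0 CPM in clone 8 (5 and 0 reads). The low 4h values were thus those of clone 8. At rev it measured 17.9 and 17.4 CPM in clone 4 and 14.1 and 13.6 CPM in clone 8, above every 0h library. The log2 fold change was -1.32 at 4h vs 0h (SE 0.625, edgeR adjusted p = 0.121), which did not pass the test. Without replicate 1 of clone 4 at 4h it was -1.85 and passed (edgeR adjusted p = 0.0238), and with DESeq2 it was -1.45 and passed. At rev vs 4h Epha1 rose by 1.81 (SE 0.583, edgeR adjusted p = 0.0376), a call lost without any of the 8 libraries except replicate 1 of clone 4 and replicate 2 of clone 8 at 4h. At rev vs 0h it did not pass (0.49, edgeR adjusted p = 0.612), but with the 4h libraries left out of the fit the value was 0.55 and passed (edgeR adjusted p = 0.00347).

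Epha1 shares 236 exonic bases with Zyx, which codes for the focal adhesion protein zyxin and lies on the opposite strand. Zyx measured 57.4 and 50.6 CPM in the clone 4 libraries at 4h and 8.88 and 8.67 CPM in the clone 8 libraries, against 17.4 to 23.0 CPM at 0h. Both genes were therefore lower in clone 8 than in clone 4 at 4h. Since the handling of strand is not given, reads from the shared bases of the pair cannot be told apart, and their part in the Epha1 values was not tested.

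Ephb2 and Ephb3 code for receptors of ephrin-B ligands that are known for sorting cells in the intestinal epithelium. Ephb2 (ENSMUSG00000028664, chr4:136647539-136835988, minus strand) measured 5.56, 7.55 and 8.72 CPM at 0h and 4.89, 2.96, 5.92 and 6.03 CPM at 4h, with overlapping ranges. Its log2 fold change at 4h vs 0h was -0.51 (SE 0.192, edgeR adjusted p = 0.0378). The call was lost without any of the 3 libraries at 0h or replicate 2 of clone 4 at 4h, with edgeR adjusted p up to 0.120. With DESeq2 in place of edgeR the adjusted p was 0.0654. Ephb3 (ENSMUSG00000005958, chr16:21204755-21223305, plus strand) measured 8.55, 7.16, 10.02 and 6.79 CPM at 4h and 10.8, 13.4, 12.97 and 9.44 CPM at rev, also with overlap. It rose by 0.52 on the log2 scale at rev vs 4h (SE 0.173, edgeR adjusted p = 0.0264). That call was lost without replicate 2 of either clone at 4h, replicate 2 of clone 4 at rev or replicate 1 of clone 8 at rev, with edgeR adjusted p up to 0.0946.

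Of the ligands, Efnb1 (ENSMUSG00000031217, chrX:99136130-99148991, plus strand), which codes for ephrin-B1, rose at 4h. It measured 2.27, 3.21 and 2.54 CPM at 0h. At 4h it measured 3.67 and 5.18 CPM in clone 4, from 6 and 21 reads. In clone 8 it measured 8.65 and 6.41 CPM, from 38 and 17 reads. All 4h libraries lay above all 0h libraries. The log2 fold change was 1.25 (SE 0.231, edgeR adjusted p = 0.000222), and the call held in each fit that left out a library. Within clones the change was 1.39 in clone 8 (edgeR adjusted p = 0.00165) and 1.01 in clone 4, which did not pass (edgeR adjusted p = 0.0509). With scaling to total counts, which moved the median of all genes to -0.73, the value for Efnb1 was 0.43 and did not pass (edgeR adjusted p = 0.326). Efnb1 was already 2.27 and 2.56 CPM in clone 4 and 4.01 and 5.46 CPM in clone 8 at 2h, which did not pass against 0h (0.47, SE 0.216, edgeR adjusted p = 0.211). From 2h to 4h it rose by 0.78 (SE 0.212, edgeR adjusted p = 0.00580). At rev it measured 3.08 and 3.20 CPM in clone 4 and 4.37 and 5.81 CPM in clone 8. It fell by 0.56 from 4h (SE 0.212, edgeR adjusted p = 0.0487) and was above 0h by 0.69 (SE 0.218, edgeR adjusted p = 0.0437). The call against 0h was lost in each of the 7 fits that left out a library of either group, with edgeR adjusted p of 0.0556 to 0.171. The call against 4h was lost without any of the 8 libraries except replicate 1 of clone 4 and replicate 2 of clone 8 at 4h.

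Efna4 (ENSMUSG00000028040, chr3:89333390-89338028, minus strand), which codes for the lipid-anchored ephrin-A4, fell at 2h. It measured 3.83, 4.14 and 3.27 CPM at 0h. At 2h it measured 1.48 and 0.707 CPM in clone 4, from 13 and 8 reads. In clone 8 it measured 2.44 and 2.25 CPM, from 28 and 42 reads. All 2h libraries lay below every 0h library. The log2 fold change was -1.12 (SE 0.266, edgeR adjusted p = 0.0119), and -0.78 without the clone 4 library at 0h, where the call was lost (edgeR adjusted p = 0.222). Within clones the change was -1.83 in clone 4, against its single library at 0h. In clone 8 it was -0.67 and did not pass (edgeR adjusted p = 0.363). At 4h it measured 3.05, 1.73, 4.10 and 3.39 CPM, from 5, 7, 18 and 9 reads. These values were higher than at 2h by 0.82 on the log2 scale (SE 0.297, edgeR adjusted p = 0.0321). This call was lost without replicate 2 of clone 4 at 2h (0.59, edgeR adjusted p = 0.105) or without either clone 8 library or replicate 1 of clone 4 at 4h. Efna4 shares 168 exonic bases with 4731419I09Rik on the opposite strand.

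Efnb2 (ENSMUSG00000001300, chr8:8617434-8661242, minus strand), which codes for ephrin-B2, was the most abundant of the 4 ligands. It measured 53.0, 48.7 and 49.7 CPM at 0h and 34.7, 39.2, 45.6 and 45.3 CPM at 2h, without overlap. The log2 fold change at 2h vs 0h was -0.27 (SE 0.123) and did not pass (edgeR adjusted p = 0.211). At 4h it measured 51.3, 48.4, 52.4 and 47.5 CPM, and at rev 30.8 and 33.5 CPM in clone 4 and 47.8 and 50.1 CPM in clone 8. The rev vs 4h value was -0.32 (SE 0.117, edgeR adjusted p = 0.0411) with TMM scaling but 0.053 with scaling to total counts. The call was also lost without either clone 4 library at rev (-0.23 and -0.24), without either clone 4 library at 4h, and without replicate 1 of clone 8 at 4h. Within clones, the change at rev vs 4h was -0.63 in clone 4 (edgeR adjusted p = 0.00164). In clone 8 it was -0.03 (edgeR adjusted p = 0.894), and the difference did not pass (0.60, edgeR adjusted p = 0.0727). From 2h to 4h Efnb2 rose by 0.43 in clone 4 (edgeR adjusted p = 0.0146). In clone 8 that change was 0.14 (edgeR adjusted p = 0.441). At 2h vs 0h it was -0.52 in clone 4, against its single 0h library, and -0.11 in clone 8. At rev vs 0h it was -0.72 and -0.007.

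**Figure D2:**
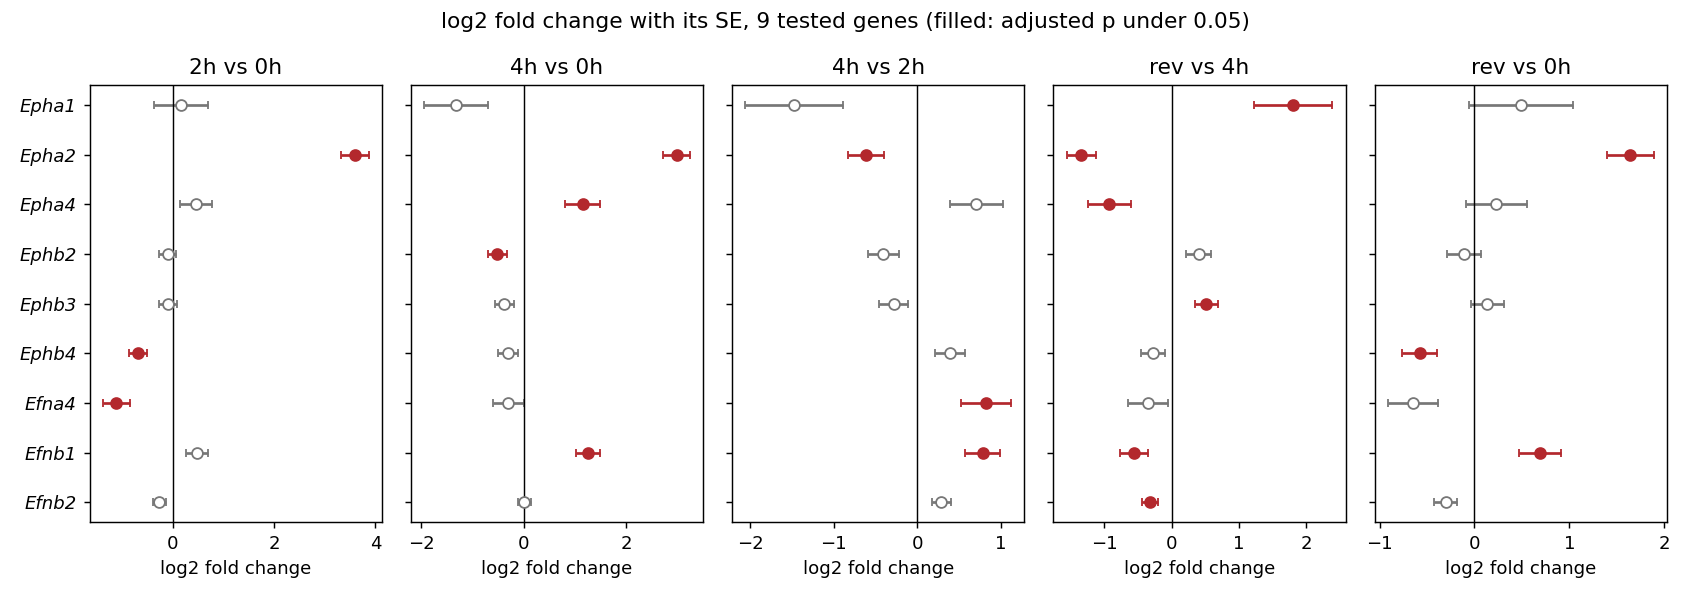
Log2 fold change (horizontal axes) with its standard error of the 9 tested genes (vertical axis) in 5 comparisons, filled red where the edgeR adjusted p was under 0.05 and open grey elsewhere. Epha2 is filled in all 5 panels, at 3.60 for 2h vs 0h and -1.34 for rev vs 4h.

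Levels can be set side by side between genes once they are divided by exon length. At 0h the order of mean levels in CPM per kilobase was Efnb2 (7.36), Ephb4 (5.59), Epha2 (3.01), Epha1 (2.58), Efna4 (2.35), Ephb3 (1.61), Efnb1 (0.774), Ephb2 (0.577), Efna1 (0.392) and Epha4 (0.303). Efnb2, Ephb4 and the group of Epha2, Epha1 and Efna4 did not overlap with one another in their 3 libraries, while Epha2, Epha1 and Efna4 overlapped among themselves. Efnb1 and Ephb2, Ephb2 and Efna1, and Efna1 and Epha4 also overlapped as neighbours. Epha2 reached 35.9 ± 8.05 CPM per kilobase at 2h (SD, n = 4), 23.6 ± 4.36 at 4h and 9.27 ± 1.27 at rev.

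Among the 6 receptors, Epha2 was 15.04% of the summed CPM per kilobase in the clone 4 library at 0h and 24.2% and 26.2% in the clone 8 libraries. At 2h its share was 82.5% and 82.7% in clone 4 and 77.2% and 76.1% in clone 8. Epha2 was thus a minor share of the summed RNA of these 6 receptors at 0h and most of it at 2h. Receptor genes outside the list are not in the sum. The mean share was 21.8% ± 5.94 (SD, n = 3) at 0h, 79.6% ± 3.46 (n = 4) at 2h, 73.9% ± 1.99 (n = 4) at 4h and 47.4% ± 3.21 (n = 4) at rev. The sum of the other 5 receptors was 10.7 ± 0.236, 8.94 ± 0.841, 8.26 ± 1.28 and 10.2 ± 0.434 CPM per kilobase in the same groups.

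**Figure D3:**
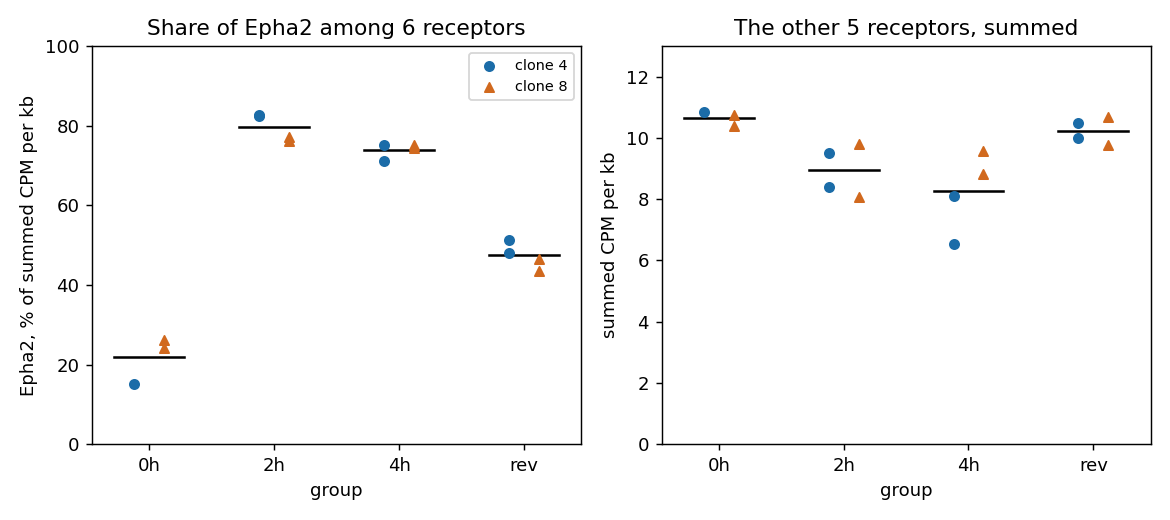
Left, share of Epha2 in the summed CPM per kilobase of 6 Eph receptors (vertical axis, percent) and right, the sum of the other 5 (vertical axis, CPM per kilobase), by group, with blue circles for clone 4, orange triangles for clone 8 and black bars for means. The share is 15.04% to 26.2% at 0h and 76.1% to 82.7% at 2h, while the sum of the others has means between 8.26 and 10.7.

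Epha2 was compared with each of the other 8 tested genes through the log2 ratio of Epha2 to that gene within each library, which depends little on how libraries are scaled. At 2h vs 0h the ratio was higher in every 2h library than in every 0h library for 8 of 8 genes, by 3.26 for Efnb1 up to 4.73 for Efna4, as for 99.7% of all other tested genes. At 4h vs 0h it was higher without overlap for 8 of 8, by 1.94 for Efnb1 up to 5.09 for Epha1 (96.7% of all genes), and at rev vs 0h for 8 of 8, by 1.02 for Epha1 up to 2.32 for Efna4 (92.6%). These counts are near what all genes give, and describe Epha2 rather than the 8 genes. At rev vs 4h it was lower without overlap for 6 of 8 (78.6% of all genes), with differences from -4.07 for Epha1 to -0.57 for Epha4, and Epha4 and Efnb1 were the genes whose libraries overlapped. At 4h vs 2h it was lower without overlap for Efna4, Efnb1 and Efnb2 (27.5% of all genes), and the other 5 overlapped. Two-sided exact permutation tests over samples gave an adjusted p of at least 0.0653 over the 40 tests, since 3 against 4 samples cannot go below 0.0571 and 4 against 4 cannot go below 0.0286. None passed, and with these group sizes none could have passed after adjustment, so these tests decide nothing. Of the 40, 9 had an unadjusted p of 0.0286, which is the smallest those groups allow. With limma on the same ratios over all tested genes, 8 of 8 passed at 2h vs 0h, where 99.8% of all genes differed from Epha2, and 8 of 8 at 4h vs 0h, where 98.6% did. Epha1 was the exception at rev vs 0h, with 7 of 8 passing (94.6% of all genes), and at rev vs 4h 7 of 8 (90.3%), with Epha4 the exception. At 4h vs 2h 5 of 8 passed (32.6%).

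The changes of Epha2 were also fitted within each clone. Within a clone, 4.33% of all tested genes were called at 2h vs 0h in clone 4 and 2.42% in clone 8. In clone 4, with 1 library at 0h, Epha2 was higher at 2h than at 0h by 4.47 on the log2 scale (SE 0.187), and in clone 8 by 3.04 (SE 0.129). The difference, clone 8 minus clone 4, was -1.43 (edgeR adjusted p = 0.00282), where 0.23% of all tested genes showed a difference between clones in this response. It missed the threshold without replicate 2 of clone 8 at 0h (-1.36, edgeR adjusted p = 0.0523), and it cannot be fitted without the clone 4 library at 0h. Comparisons with 0h in clone 4 rest on that single library, which is assumed to vary like the libraries of the other groups. From 2h to 4h, where 27.3% of genes were called in clone 4 and 26.9% in clone 8, Epha2 fell by 1.10 in clone 4, and in clone 8 its change was -0.10 (edgeR adjusted p = 0.579). That difference of 1.00 (edgeR adjusted p = 0.00169, where 3.14% of genes differed) held in each fit that left out a library. Against 0h, the changes at 4h, where 27.1% and 26.5% were called, were 3.37 in clone 4 and 2.94 in clone 8, and their difference did not pass the test (-0.43, edgeR adjusted p = 0.275).

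From 4h to rev, where 17% of genes were called in clone 4 and 23.4% in clone 8, Epha2 fell by 0.96 in clone 4 and by 1.70 in clone 8, a difference of -0.74 (edgeR adjusted p = 0.0201, where 2.8% of genes differed). At rev vs 0h, where 7.32% and 4.81% were called, it was higher by 2.40 in clone 4 and 1.24 in clone 8, a difference of -1.17 (edgeR adjusted p = 0.0252, where 0.0818% of genes differed). The first of these was lost without any of the 8 libraries except replicate 1 of clone 4 at 4h and replicate 2 of clone 4 at rev, with edgeR adjusted p up to 0.131. The second was lost without either clone 8 library at 0h, replicate 1 of clone 4 at rev or either clone 8 library at rev, with edgeR adjusted p up to 0.248. Tested jointly over 3 interaction terms, the responses of Epha2 differed between clones (edgeR adjusted p = 0.000233), as did those of Epha1 (edgeR adjusted p = 0.00219), where 3.18% of genes did. The other 7 tested genes did not pass the joint test, with edgeR adjusted p from 0.0861 for Ephb4 to 0.954 for Ephb3.

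Epha1 differed between clones through its 4h values. At 4h vs 0h its fitted change was -0.19 in clone 4 and -3.71 in clone 8, a difference of -3.52 (edgeR adjusted p = 0.00151, where 3.87% of genes differed). At 4h vs 2h the difference was -3.40 (edgeR adjusted p = 0.00157) and at rev vs 4h it was 3.57 (edgeR adjusted p = 0.00101). The clone 8 level at 4h rests on 5 reads in replicate 1 and 0 in replicate 2. Set at the floor of 3 counts (1.13 CPM), the library with no read was at least 8.07-fold lower than the clone 8 mean at 0h, at least 9.16-fold lower than at 2h and at least 12.2-fold lower than at rev. The 3 differences kept their sign and their call in each fit that left out a library, and were -2.79, -2.69 and 2.88 without the library that had no read. The other clone 8 library at 4h, replicate 1, cannot be left out for a usable value, since a library with no read then stands alone.

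Ephb4 also differed at 4h vs 0h, with -0.997 in clone 4 and 0.15 in clone 8. The values at 4h were 12.2 and 13.8 CPM in clone 4 and 29.4 and 27.9 CPM in clone 8, beside 25.2 to 26.4 CPM at 0h. The difference of 1.15 (edgeR adjusted p = 0.0269) was lost without any of the libraries compared except replicate 2 of clone 4 at 4h, with edgeR adjusted p up to 0.112. Some markers also parted by clone at 4h. Naive markers summed to 38.5 and 32.3 CPM in clone 4 and 127 and 116 CPM in clone 8. The largest of them on average, Esrrb, ranged from 7.41 to 76.1 CPM over the 4h libraries. Vim measured 258 and 267 CPM in clone 4 and 71.0 and 57.7 CPM in clone 8. Of the rest of the fibroblast list, Col1a1 had 7 and 14 reads in clone 4 and 3 and 1 in clone 8, and Thy1 had 3 and 5 in clone 4 and 6 and 0 in clone 8. The part of these markers in the clone differences was not tested.

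**Figure D4:**
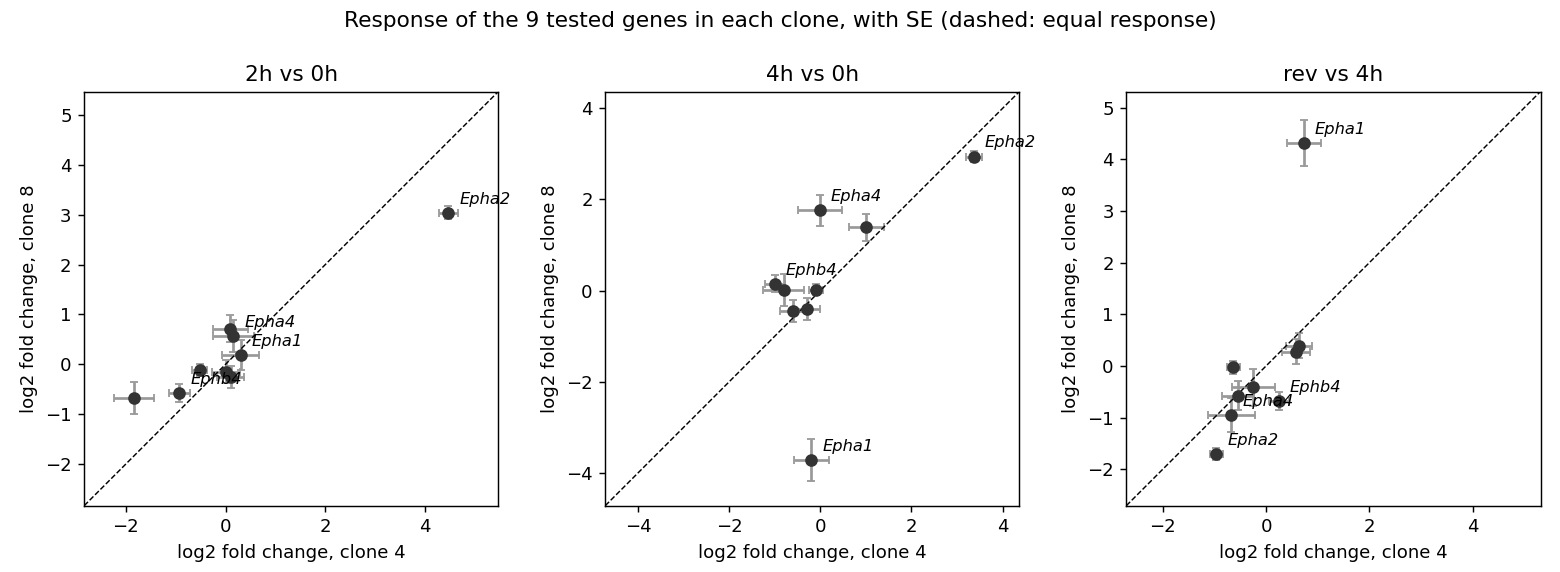
Log2 fold change with its standard error in clone 4 (horizontal axes) against clone 8 (vertical axes) for the 9 tested genes in 3 comparisons, with Epha1, Epha2, Epha4 and Ephb4 named and a dashed line where both clones respond equally. Epha2 lies below the line at 2h vs 0h (4.47 and 3.04), and Epha1 lies far off it at 4h vs 0h (-0.19 and -3.71).

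Across all groups, 5 of the 9 genes were higher in clone 8 than in clone 4 and none was lower, against a background of 18.5% (higher 10.4%, lower 8.11%). With scaling to total counts 2 genes were called, Epha4 as higher and Epha1 as lower in clone 8 (-0.90), and the calls of Ephb2, Ephb4, Efna4 and Efnb1 were lost. With TMM scaling Epha4 had the largest difference, 1.34 on the log2 scale (SE 0.230, edgeR adjusted p = 0.000262), followed by Efnb1 with 0.716 (SE 0.152, edgeR adjusted p = 0.00193). Both held in each fit that left out a library. Efna4 (0.610), Ephb2 (0.411) and Ephb4 (0.415) passed with edgeR adjusted p of 0.0260 to 0.0357. The call of Ephb2 was lost without either the clone 4 library or replicate 2 of clone 8 at 0h, replicate 2 of clone 4 at 4h, or replicate 1 of either clone at rev. That of Ephb4 was lost without any 4h library, replicate 2 of either clone at 2h or replicate 2 of clone 4 at rev. That of Efna4 was lost without any 2h library, replicate 2 of clone 4 or replicate 1 of clone 8 at 4h, or replicate 2 of clone 4 or replicate 1 of clone 8 at rev. Epha2 did not differ in level averaged over groups by more than its error (0.04, SE 0.162, edgeR adjusted p = 0.893).

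The family holds 12 further genes in the mouse, of which 9 passed the filter and Epha3, Epha5 and Epha6 did not. At 2h vs 0h none of these 9 rose and 1 fell, the receptor gene Epha8 (-0.95, edgeR adjusted p = 0.0431), beside 6.45% of all tested genes. At 4h vs 0h the receptor gene Epha7 rose (1.13, edgeR adjusted p = 0.00299), while Epha8 (-1.52) and the ephrin-A5 gene Efna5 (-0.67) fell, which is near the background of 39.4%. At 4h vs 2h Epha7 (1.05) and Ephb6 (1.18), whose receptor lacks kinase activity, rose (background 38.9%). At rev vs 4h Epha8 rose (0.93, background 30.8%), and at rev vs 0h Epha7 was higher (1.22, edgeR adjusted p = 0.00388, background 11.2%). Within clones, the ephrin-A3 gene Efna3 was also called in clone 4, at 4h vs 0h (1.55, edgeR adjusted p = 0.0303) and rev vs 0h (1.60, edgeR adjusted p = 0.0379), from 16 reads in the only 0h library. The response of Epha7 from 2h to 4h differed between clones by -1.55 (edgeR adjusted p = 0.0358). The receptor gene Ephb1 was called in clone 8, as lower from 2h to 4h and higher from 4h to rev, and the latter response differed between clones (edgeR adjusted p = 0.0346). Ephb1 had 0 reads in both clone 8 libraries at 4h, where the floor of 3 counts (0.683 and 1.13 CPM) is about its level at rev (1.13 and 0.934 CPM), so no fold change is given. Efna3 and Ephb1 each share exonic bases with another gene on the opposite strand. The median log2 fold change of the 9 was -0.12 at 2h vs 0h and -0.10 at 4h vs 0h.

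Genes for 35 proteins known to act with Eph receptors or ephrins were all tested. At 2h vs 0h none rose and 1 fell, Vav2 (-0.52, edgeR adjusted p = 0.0491), which codes for an exchange factor, beside 6.45% of all tested genes. From 0h to 4h 9 of the 35 rose and 6 fell, which is near the background (higher 20.5%, lower 18.9%). The 3 that rose with the smallest p were Adam10, whose protease cleaves ephrins (1.24), and the kinase genes Abl2 (0.47) and Rock2 (0.75). The 3 that fell with the smallest p were the phosphatase gene Ptpn11 (-0.68), Vav2 (-0.77) and the adaptor gene Crk (-0.51). At 4h vs 2h 7 rose and 6 fell (background 19.7% and 19.2%), led by Adam10 (0.94), Chn1 (0.70) and Abl2 (0.35) among the former and Crk (-0.77), Ptpn11 (-0.64) and Grip1 (-1.02) among the latter. At rev vs 4h, with a background of 15.1% higher and 15.6% lower, 5 rose, led by Crk (0.67), Tiam1 (0.61) and Ptpn11 (0.44), and 4 fell, led by Adam10 (-0.91), Chn1 (-0.66) and Kalrn (-0.80). Against 0h, at rev, Sdcbp (0.61), Abl2 (0.29) and Rock2 (0.46) were the 3 that rose and Vav2 the gene that fell (-0.51), with a background of 6.49% and 4.66%. The medians of the 35 lay between -0.03 and 0.00 in these 5 comparisons, beside -0.01 to 0.03 over all tested genes.

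Over the 15 samples, the genes whose log2 CPM most resembled that of Epha2, of 12283 ranked, were Spry2 (Pearson r = 0.954), Spry4 (0.949), Dusp6 (0.946), Plk3 (0.943) and Cep55 (0.937). Spry2, Spry4 and Dusp6 code for feedback inhibitors of the receptor tyrosine kinase to ERK pathway. Spry4 measured 0.856 ± 0.123 CPM at 0h (SD, n = 3), 91.1 ± 34.5 at 2h, 70.4 ± 34.2 at 4h and 14.0 ± 4.28 at rev (n = 4 each). Dusp6 measured 3.35 ± 1.00, 152 ± 28.3, 57.4 ± 31.2 and 19.9 ± 2.70 CPM in the same order. Like Epha2, both were on average lowest at 0h, highest at 2h and between these at rev. By clone, Epha2, Spry4 and Dusp6 were all higher on average in clone 4 than in clone 8 at 2h and at rev. At 2h vs 0h, clone 8 minus clone 4 was -1.43 for Epha2, -1.22 for Dusp6 and -0.72 for Spry4. At rev vs 0h the differences were -1.17, -1.08 and -0.51. Neither value of Spry4 passed the test, nor did that of Dusp6 at rev vs 0h. All of them rest on the single clone 4 library at 0h. At 4h Spry4 and Dusp6 parted from Epha2. At 4h Epha2 averaged 92.6 CPM in clone 4 and 128 CPM in clone 8, against 99.6 and 41.1 CPM for Spry4. Dusp6 averaged 84.4 and 30.4 CPM. The clone difference from 2h to 4h, clone 8 minus clone 4, was 1.00 for Epha2 and -1.02 for Dusp6 (edgeR adjusted p = 0.00195). For Spry4 it was -0.30 and did not pass (edgeR adjusted p = 0.460). Of the other 8 tested Eph and ephrin genes, Efnb1 (r = 0.354) and Epha4 (r = 0.238) had positive values, and the remaining 6 ran from -0.534 for Efna4 to -0.242 for Epha1. These values describe 15 libraries that share 4 groups and 2 clones.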

How the data were processed

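The authors deposited raw counts per gene, with no normalization, in 1 table of whole numbers for 15 samples. They aligned with STAR 2.5.3a to mm10 after bcl2fastq 2.19.1, per the submitters' processing notes, and discarded 1 sample of the 0h group in quality control, per the labels. The counting tool, annotation and strand handling are not given in the sources used here. Libraries were made from 1 µg of RNA depleted of ribosomal RNA, per the labels' protocols.

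The analysis used edgeR 4.0.16 in R 4.3.3. Low counts were removed by filterByExpr with the 4 groups, a minimum count of 10 and a minimum total of 15, and 13451 genes passed. Libraries were scaled by TMM. The two-sided quasi-likelihood F test with robust estimation was fitted over all 15 samples with group and clone, or with 8 terms that split the groups by clone, and adjusted by Benjamini-Hochberg over all tested genes (threshold 0.05). CPM are on TMM-scaled totals, and log2 ratios used a prior count of 2. Ratios of Epha2 were compared with exact permutation tests (scipy 1.17.1) and limma 3.58.1, and DESeq2 1.42.0 was an alternative. On simulated counts with 200 genes changed by 2 on the log2 scale, the test found 197 with 8 false calls for 2h vs 0h over 13046 genes. For 4h vs 0h it found 189 with 7 false calls over 12985 genes. The test of a difference between clones at rev vs 4h found 140 with 10 false calls over 13002 genes. Genes of low mean CPM were not among those changed in the simulations. Rises and falls were equal in number, and no other gene changed. In the data 39.4% of tested genes were called at 4h vs 0h, so these figures need not hold for the 4h results. The floor is 3 counts per library, covers counting error only and lay between 0.161 and 1.83 CPM.

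Positions and exon lengths are those of GENCODE M21, which held 52403 of the 52636 identifiers. The genes, lists and tests were chosen with earlier results of these data known. The text names all 10 genes, the family genes that were called in any comparison or failed the filter, up to 3 related genes with the smallest p in each direction, and the 5 genes most correlated with Epha2.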

Additional observations from a re-analysis of the deposited data

Results flagged for a closer look

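The response of Epha2 differed between clones in 4 comparisons by a test of the difference itself. Clone 8 minus clone 4 was -1.43 on the log2 scale at 2h vs 0h, 1.00 at 4h vs 2h, -0.74 at rev vs 4h and -1.17 at rev vs 0h. When libraries were left out in turn, the first lost its call in 1 of 6 fits, the second in none of 8, the third in 6 of 8 and the fourth in 5 of 6. For Epha1 it was -3.52 at 4h vs 0h, -3.40 at 4h vs 2h and 3.57 at rev vs 4h, and all 3 rest on the clone 8 libraries at 4h with 5 and 0 reads. For Ephb4 it was 1.15 at 4h vs 0h, with the call lost in 5 of 6 fits. Every such difference against 0h rests on a single clone 4 library at 0h.

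In 2 of 30 sets of 4 libraries, 1 library lay far from the other 3, where chance gives about 1 in 20. Ephb2 measured 7.39 CPM in replicate 2 of clone 8 at 2h, above the 5.90 to 6.10 CPM of the others. Ephb4 measured 13.4 CPM in replicate 2 of clone 4 at rev, below the 17.6 to 18.0 CPM of the others.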

How the results depend on the processing

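Over both clones, Epha2 kept its direction in the 5 comparisons of groups under every alternative run, and its call except at 4h vs 2h, where the replicate block gave -0.61 (edgeR adjusted p = 0.0809) and leaving out a library gave -0.75 to -0.50. Scaling to total counts moved the median of all genes to -0.73 at 4h vs 0h, -0.57 at 4h vs 2h, 0.45 at rev vs 4h, -0.30 at rev vs 0h and -0.18 at 2h vs 0h. Under it Efnb2 was -0.70 at 4h vs 0h and 0.053 at rev vs 4h, each with a sign other than in the TMM-scaled fit, 7 genes were called at 4h vs 0h and 3 at rev vs 4h, and 2 differed between clones. Without the clone term 1 gene was called at 2h vs 0h, 2 at 4h vs 0h, 1 at 4h vs 2h, 1 at rev vs 0h and 2 at rev vs 4h. At rev vs 4h 3 were called with DESeq2 and 3 without the 20 most abundant and mitochondrial genes. At rev vs 0h the replicate block left 1 and a fit to those groups alone gave 5. Limma on the ratios of Epha2 called 35 of 40. The cause was not tested. The difference between clones in the response of Epha2 kept its sign in each fit that left out a library, but lost its call in some fits at 2h vs 0h (-1.53 to -1.31), rev vs 4h (-0.85 to -0.61) and rev vs 0h (-1.27 to -1.03). Leaving out 1 library gave 1 to 3 calls at 2h vs 0h, 2 to 5 at 4h vs 0h, 1 to 4 at 4h vs 2h, 1 to 5 at rev vs 4h, 1 to 2 at rev vs 0h and 2 to 5 between clones. Same-numbered samples deviated together in 1 of 9 pairs of groups within a clone (correlation over 0.1, range -0.194 to 0.261). With deviations taken from group means over both clones, which leaves clone differences in, correlations ran from 0.0465 to 0.436. With at most 2 libraries per clone and group, these checks cannot exclude that same-numbered samples share more than a number. The older quasi-likelihood method, fits without the 4h libraries, the limma ratios and leaving out libraries from clone tests were chosen after seeing the data. The depth of the 4h libraries limits what can be seen in low genes, whose floor there reached 1.83 CPM, and the family and related genes were not refitted.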
